A study of Mus musculus with 32 samples.

Results

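The genes of sterol and fatty acid synthesis were followed through all 8 groups of a mouse lung organoid experiment. The set was a list of gene symbols, with 17 enzymes of the sterol route, 6 regulators and 14 enzymes of fatty acid and membrane lipid synthesis, and all 37 listed genes were among the 11818 genes of the count table. The list was drawn up by the known roles of the genes, and no measured value enters its rule. Earlier results of these data were known when it was chosen. Epcam+ (CD31-/CD45-) lung epithelial cells of C57BL/6J mice aged 8 to 14 weeks were mixed with proliferation-inactivated CCL206 cells, a mouse lung fibroblast line, and grown in Matrigel in a serum-containing medium. Each of 4 mice gave a culture with vehicle, with extracellular vesicles (EVs, 1000000000 particles per mL), with soluble factors (SFs, 30 µg/mL) and with osteoglycin (OGN, 10 µg/mL), and EVs and SFs both came from MRC5 human lung fibroblasts. After 72 h each culture was dissociated and sorted again with Epcam microbeads into Epcam+ cells and CCL206 fibroblasts, and RNA of both was sequenced, which gave 32 libraries in 8 groups of 4. The mouse number therefore marks the epithelial donor, and the fibroblasts of all 4 mice are 1 cell line.

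Cholesterol is built from acetyl-CoA through mevalonate and squalene, and fatty acids are built from the same acetyl-CoA through malonyl-CoA. Both routes are switched on by the SREBF transcription factors, which are held in the endoplasmic reticulum with their escort Scap by the Insig anchors while sterol is plentiful, and are cut and sent to the nucleus when sterol runs low. Srebf2 acts mainly on the sterol route and Srebf1 mainly on fatty acid synthesis. Alveolar type 2 (AT2) cells of the lung use the fatty acid route to make the phosphatidylcholine of surfactant.

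The promoters of the sterol enzymes shared the CCAAT box, the site of the factor NF-Y that is known to assist SREBF factors. A promoter was found in RefSeq (GRCm38.p6) for 30 of the 37 genes. In the 250 bases before the start, CCAAT was present on either strand in all 14 sterol enzymes with an entry, in 4 of 5 regulators and in 5 of 11 fatty acid enzymes, against 41.3% of the 9166 genes of the count table that had an entry and 37.5% of all 27025 genes. The GC box GGGCGG was present in 24 of the 30, against 66% of the genes of the count table. The E-box CACGTG was in 6 of the 30, against 10.1%. The sterol element TCACNCCAC was in 1 of the 30, Hmgcs1, against 1.23%. Each motif was searched on both strands and apart from the others. A match is a run of letters and was not tested as a site of any factor. The windows of 5 genes are shown because they carry the results below: Mvd, Nsdhl and Pmvk rose with OGN in fibroblasts, Hmgcs1 held the sterol element, and Fasn is the main enzyme of the other route. Capitals mark CCAAT on either strand and, in Hmgcs1, also the sterol element, and for Pmvk the first of 2 annotated starts is shown.
Hmgcs1 (chr13:119690101-119690350, plus strand): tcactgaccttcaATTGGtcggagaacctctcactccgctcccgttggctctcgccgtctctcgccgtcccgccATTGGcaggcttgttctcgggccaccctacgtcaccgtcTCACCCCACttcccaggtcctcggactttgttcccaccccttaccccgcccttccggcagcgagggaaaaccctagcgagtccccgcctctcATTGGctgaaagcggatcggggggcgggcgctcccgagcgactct
Mvd (chr8:122443423-122443672, minus strand): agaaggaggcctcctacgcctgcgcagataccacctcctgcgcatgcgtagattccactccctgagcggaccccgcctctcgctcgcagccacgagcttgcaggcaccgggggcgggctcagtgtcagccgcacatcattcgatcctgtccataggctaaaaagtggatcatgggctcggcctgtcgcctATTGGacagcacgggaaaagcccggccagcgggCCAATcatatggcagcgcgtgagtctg
Nsdhl (chrX:72918271-72918520, plus strand): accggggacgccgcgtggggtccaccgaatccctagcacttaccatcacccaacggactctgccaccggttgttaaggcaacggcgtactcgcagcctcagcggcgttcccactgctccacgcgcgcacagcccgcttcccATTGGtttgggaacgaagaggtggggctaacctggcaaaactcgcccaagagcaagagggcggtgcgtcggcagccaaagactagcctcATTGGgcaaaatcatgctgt
Pmvk (chr3:89454291-89454540, plus strand): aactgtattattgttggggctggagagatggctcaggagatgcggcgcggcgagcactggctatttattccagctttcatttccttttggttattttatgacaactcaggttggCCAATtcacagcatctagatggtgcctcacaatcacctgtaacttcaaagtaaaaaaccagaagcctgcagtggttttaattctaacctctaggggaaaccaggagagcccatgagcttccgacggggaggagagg
Fasn (chr11:120824548-120824797, minus strand): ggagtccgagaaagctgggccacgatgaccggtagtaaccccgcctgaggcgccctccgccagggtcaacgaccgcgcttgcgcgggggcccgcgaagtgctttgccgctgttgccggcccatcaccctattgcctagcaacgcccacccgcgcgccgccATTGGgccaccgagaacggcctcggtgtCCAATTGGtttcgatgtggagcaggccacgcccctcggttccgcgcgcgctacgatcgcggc

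Depth was between 1805914 and 17675454 counts per library. Every gene of the table had at least 1 count in every library, and the lowest count of a member was 5, for Fdps. The sort was checked with marker genes, of which the AT2 and fibroblast lists are those the study used. Between the vehicle libraries all 5 general epithelial markers, all 5 airway markers and 8 of 10 AT2 markers were higher in Epcam+ cells, and 8 of 9 fibroblast markers were lower, with Fbln1 the exception. The 9 fibroblast markers summed to between 7834 and 13270 CPM (counts scaled to a common library size) in the fibroblast libraries and between 2052 and 3745 in the Epcam+ libraries, and the 10 AT2 markers summed to between 9552 and 15999.5 CPM in Epcam+ cells. AT2 RNA was also present in the fibroblast libraries, with a sum between 1597 and 4841 CPM, and Epcam itself stood at between 1.22% and 8.73% of its level in the Epcam+ cells of the same culture. In such bulk RNA a change in the share of a cell type and a change in RNA per cell cannot be told apart.

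In untreated cultures most genes of fatty acid and membrane lipid synthesis were higher in Epcam+ cells, while the sterol enzymes split in both directions. Between the vehicle libraries 27 of the 37 genes passed the test (called from here on: edgeR's quasi-likelihood test, Benjamini-Hochberg adjusted p under 0.05 over all genes), 20 higher and 7 lower in Epcam+ cells. Of all genes tested 71.4% differed, 35.6% higher and 35.8% lower, so the share of differing members lay near that of all genes. By group, 11 of 14 fatty acid genes were higher and 1 was lower, with a median log2 difference of 0.41 (Epcam+ minus CCL206). Of the 17 sterol enzymes 7 were higher and 4 lower, with a median of 0.05. Among the 6 regulators 2 were higher and 2 lower.

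Cyp51, the lanosterol demethylase, had the smallest p. It stood at 222, 214, 276 and 220.4 CPM in Epcam+ cells of mice 1 to 4 and at 55.1, 40.5, 54.4 and 44.2 CPM in their fibroblasts. The ranges were far apart (4.79-fold, log2 2.26 ± 0.0891 standard error, SE, adjusted p = 6.41e-09, edgeR's quasi-likelihood test with Benjamini-Hochberg adjustment). Exons of Akap9 overlap those of Cyp51 on the other strand, and whether strand was used in counting is not given in the sources used here. Pmvk, which phosphorylates phosphomevalonate, was 4.12-fold higher in Epcam+ cells, with 51.2, 43.4, 56.8 and 53.0 CPM against 13.4, 11.2, 12.7 and 12.1 (log2 2.04 ± 0.123 SE, adjusted p = 9.04e-08, edgeR). Mvd, the step after it, was also called higher in Epcam+ cells, at 54.2 ± 1.41 CPM against 35.5 ± 9.50 (SD, n = 4), with a smaller log2 difference of 0.64. Mvk, the kinase before it, was not called and stood at 44.2 ± 1.90 CPM in Epcam+ cells and 47.0 ± 8.91 in fibroblasts (SD, n = 4).

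Several enzymes of fatty acid and membrane lipid synthesis were also higher in Epcam+ cells. Lpcat1, which acylates lysophosphatidylcholine and serves surfactant synthesis in AT2 cells, measured 409, 405, 405 and 492 CPM in Epcam+ cells against 142, 99.9, 108 and 82.5 in fibroblasts (log2 2.00 ± 0.140 SE, adjusted p = 2.89e-07, edgeR). Scd1, the stearoyl-CoA desaturase, had 3029, 2506, 2585 and 2910.2 CPM against 1146, 675, 759 and 448 (log2 1.94). Relative to their level, the fibroblast libraries differed more among themselves for these genes than the Epcam+ libraries did, and they fell in the order of their AT2 marker sums, which were 4841, 2957, 3266 and 1876 CPM in mice 1 to 4. The part of AT2 RNA in the fibroblast level of Scd1 and Lpcat1 was not tested. Me1, which supplies NADPH, was higher by 1.51 on the log2 scale (adjusted p = 2.89e-08, edgeR), Elovl1, an elongase of very long chains, by 1.31 (adjusted p = 9.85e-08, edgeR) and Srebf1 by 1.13 (adjusted p = 7.14e-07, edgeR). Srebf2 differed by 0.05 (adjusted p = 0.596, edgeR), with 289 to 348 CPM in Epcam+ cells and 305 to 333 in fibroblasts.

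The genes lower in Epcam+ cells were Fads1, Insig2, Insig1, Nsdhl, Sc5d, Msmo1 and Sqle. Fads1, a desaturase of polyunsaturated fatty acids, measured 262, 237, 245 and 232 CPM in Epcam+ cells and 387, 382, 422 and 442 in fibroblasts, with no overlap (log2 -0.74 ± 0.0731 SE, adjusted p = 4.35e-06, edgeR). Its neighbour Fads2 did not pass (log2 -0.17, adjusted p = 0.173, edgeR). Both anchors were lower, Insig2 by a log2 difference of -0.56 (adjusted p = 0.00025, edgeR) and Insig1 by -0.34 (adjusted p = 0.00131, edgeR). The late sterol enzymes Nsdhl (-0.43), Sc5d (-0.36), Msmo1 (-0.27) and Sqle (-0.21) differed less. The 10 genes that did not pass were Tm7sf2, Elovl6, Scap, Fads2, Fdps, Fdft1, Mvk, Srebf2, Dhcr7 and Hsd17b7.

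Set against transcript length, Scd1 and Scd2 were the most abundant members in Epcam+ cells. Scd1 reached 549 ± 50.1 CPM per kb in vehicle Epcam+ cells (SD, n = 4) and Scd2 285 ± 26.1, followed by Lpcat1 with 116 ± 11.7, Hmgcs1 with 104 ± 8.19 and Acly with 104 ± 6.07. The last 3 of these did not differ beyond their spread. In fibroblasts Scd1 with 151 ± 57.9 CPM per kb and Scd2 with 150.1 ± 11.2 did not differ beyond their spread, nor did Scd1 from Insig1 (119 ± 9.02), Fads1 (115 ± 8.08) and Sqle (100.4 ± 13.4), which came next. Lpin1, a phosphatidate phosphatase, was the lowest in both, at 4.84 ± 0.577 CPM per kb in Epcam+ cells and 3.72 ± 0.494 in fibroblasts.

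**Figure D1:**
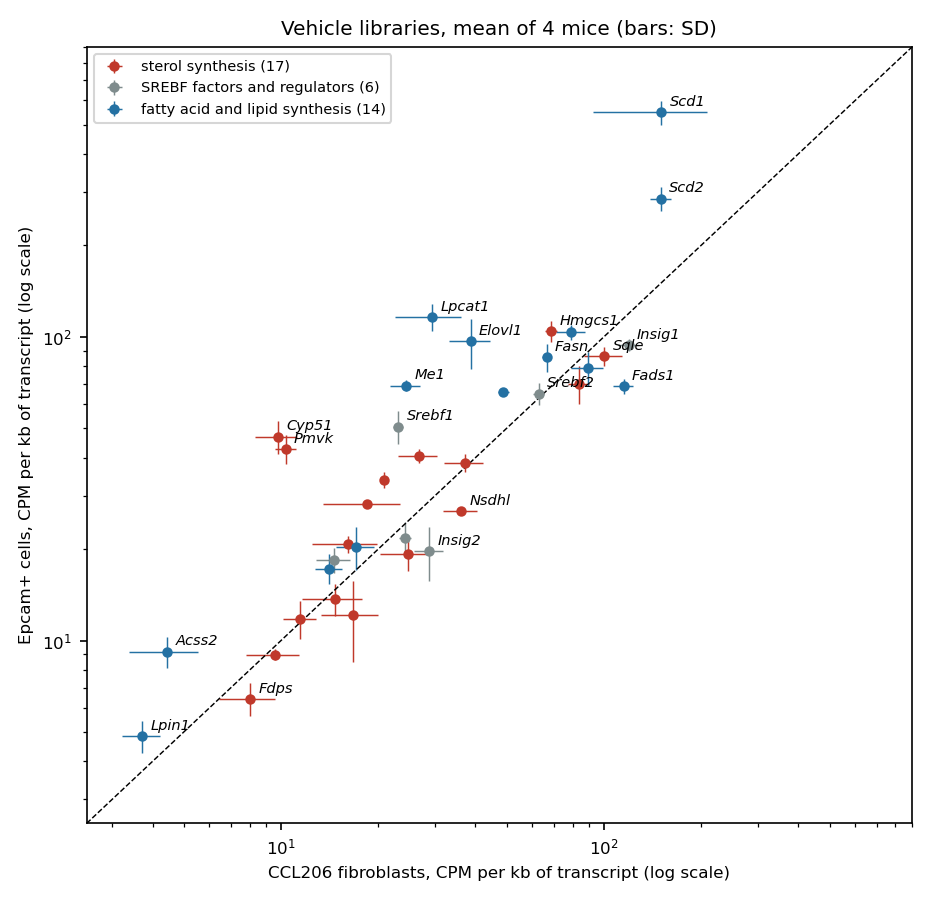
Level of the 37 genes in vehicle libraries, in CPM per kb of transcript, with CCL206 fibroblasts on the x axis and Epcam+ cells on the y axis (both log scales; points are means of 4 mice, bars are SD, and the dashed line marks equal levels). Scd1, Lpcat1, Cyp51, Pmvk, Me1, Elovl1 and Srebf1 lie above the line, and Fads1 and Insig2 lie below it.

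OGN raised 4 enzymes of the sterol route in the fibroblasts, and the rest of the route had smaller or more variable differences in the same direction. All 17 sterol enzymes had a positive fold change, with a median of 0.34 on the log2 scale and a range from 0.09 to 0.74, where 48% of all genes were positive and the median of all genes was -0.01. By edgeR's test 4 of the 37 genes were called higher and none lower, all 4 of them sterol enzymes: Nsdhl, Pmvk, Mvd and Sqle. Of all genes tested 4.56% were called, 2.70% higher and 1.86% lower. In all 4 mice 12 of 17 sterol enzymes, 4 of 6 regulators and 8 of 14 fatty acid genes were higher with OGN, against 16.8% of all genes. The 4 OGN libraries lay above all 4 vehicle libraries for 8, 1 and 6 of them, against 8.64% of all genes.

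Nsdhl, which removes a carboxylated methyl group from the sterol ring, measured 83.8, 86.6, 105 and 105 CPM with vehicle and 124, 126, 129 and 144 with OGN in mice 1 to 4. The groups did not overlap (1.38-fold, log2 0.46 ± 0.0926 SE, adjusted p = 0.00609, edgeR). Pmvk rose from 13.4, 11.2, 12.7 and 12.1 CPM to 20.2, 17.01, 22.4 and 24.0, again without overlap (1.67-fold, log2 0.74 ± 0.179 SE, adjusted p = 0.0234, edgeR). Mvd, which decarboxylates mevalonate diphosphate to the first isoprene unit, went from 27.2, 27.6, 45.6 and 41.6 CPM to 41.7, 48.0, 50.3 and 56.3. It was higher in each mouse, but the groups overlapped because the vehicle fibroblasts of mice 3 and 4 were already high (1.40-fold, log2 0.48 ± 0.128 SE, adjusted p = 0.0413, edgeR). Sqle, the squalene epoxidase, had 259.5, 244, 295 and 329 CPM with vehicle and 356, 364, 338 and 369 with OGN. All OGN libraries lay above all vehicle libraries, and mice 3 and 4 again started higher (1.27-fold, log2 0.35 ± 0.0948 SE, adjusted p = 0.0479, edgeR). Nsdhl shares exon bases with Cetn2, and Sqle with Washc5, on the opposite strand, so reads of those genes may be among their counts. In the vehicle libraries Nsdhl and Sqle were lower, and Pmvk and Mvd higher, in Epcam+ cells than in fibroblasts. The Epcam level in the OGN fibroblasts was between 2.95% and 8.71% of that in their Epcam+ cells, against 2.66% to 5.44% with vehicle. Of 10 AT2 markers 2 were called higher with OGN in fibroblasts (Sftpa1 and Sftpd), and of 9 fibroblast markers 2 were called higher and 1 lower. All 5 epithelial markers had a positive fold change, with a median of 0.48 and a lowest of 0.30, 3 of them were higher in all 4 mice, and 1 was called (Cldn4). The AT2 sum was between 2140 and 4272 CPM, against 1876 to 4841 with vehicle, and no marker was at 0 in any library. The part of epithelial RNA in the values of Pmvk and Mvd was not tested.

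The other 13 sterol enzymes moved less or varied more. Hsd17b7, a sterol ketone reductase, measured 47.2, 47.7, 58.3 and 58.2 CPM with vehicle and 70.0, 88.2, 67.7 and 71.0 with OGN, and Tm7sf2, a sterol reductase, 21.9, 19.8, 26.4 and 31.2 against 31.7, 36.9, 36.9 and 41.1. Both sets of libraries were separate, yet neither gene passed (adjusted p = 0.0645 and 0.0730, edgeR). Tm7sf2 shares exon sequence with Vps51 on the same strand, so its counts are uncertain. Fdps, the farnesyl diphosphate synthase, was rare in these data, with 7.93 to 13.03 CPM and 14.7 to 16.1 CPM in the same groups (adjusted p = 0.110, edgeR). Cyp51 (log2 0.34), Sc5d (0.36), Msmo1 (0.29), Lss (0.26), Fdft1 (0.25), Idi1 (0.23), Hmgcs1 (0.22), Mvk (0.16), Ebp (0.15) and Dhcr7 (0.09) did not pass. Idi1 also has 5 annotated processed pseudogenes that could take part of its reads.

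The calls depended on how the spread was estimated. The EV libraries of the fibroblasts, described below, share the estimate of the spread with the OGN comparison, and without them 21 of the 37 genes were called, 20 higher and 1 lower, against 15.1% of all genes. These were 12 sterol enzymes (Nsdhl, Pmvk, Sqle, Tm7sf2, Hsd17b7, Msmo1, Mvd, Cyp51, Sc5d, Fdps, Idi1 and Fdft1), 6 fatty acid genes (Elovl6, Fasn, Acly, Scd2, Fads2 and Acaca), and Srebf1, Stard4 and Scap. Fold changes hardly moved, with a sterol median of 0.34 in either case. The count was 1, 0, 2 and 1 without mice 1, 2, 3 and 4 in turn, with a sterol median between 0.22 and 0.38, and 1 when the mouse was not a block. The share of all genes called in these fits is not given here, so the counts cannot be set against it.

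On the fatty acid side, OGN fibroblasts showed smaller differences, with a median of 0.23 and 10 of 14 genes positive. Fasn, the fatty acid synthase, measured 701, 693, 734 and 738 CPM with vehicle and 844, 878, 828 and 867 with OGN. All OGN libraries lay above all vehicle libraries, but the gene did not pass with the EV libraries in the fit (log2 0.25, adjusted p = 0.433, edgeR) and passed without them (adjusted p = 0.00276, edgeR). Elovl6, which lengthens palmitate, went from 90.7, 95.8, 112 and 122 CPM to 141, 160.4, 121 and 151 (log2 0.45, adjusted p = 0.190, edgeR). Scd2 went from 785, 756, 840.3 and 894 CPM to 945, 961, 961 and 981, with no overlap (log2 0.23, adjusted p = 0.156, edgeR). Acss2 (0.41), Fads2 (0.26), Acaca (0.26), Acly (0.25), Scd1 (0.22), Fads1 (0.17) and Me1 (0.08) were positive without passing. Lpcat1 (-0.23), Elovl5 (-0.10), Lpin1 (-0.05) and Elovl1 (-0.02) were negative without passing.

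The regulators did not move as a block. Srebf1 measured 97.4, 97.0, 105 and 102 CPM with vehicle and 113, 111, 131 and 119.9 with OGN, which did not overlap (log2 0.24, adjusted p = 0.250, edgeR). Scap, the escort, went the other way and was lower in each mouse, from 104, 97.2, 102 and 107 CPM to 83.4, 84.2, 86.2 and 79.4 (log2 -0.30, adjusted p = 0.0648, edgeR). Insig1, itself a target of the SREBF factors, differed between mice: it was 355, 337, 299 and 316 CPM with vehicle and 448, 429, 260.4 and 288 with OGN, so it was higher in mice 1 and 2 and lower in mice 3 and 4. Srebf2 (305, 317, 321 and 333 CPM against 379, 379, 324 and 364) and Hmgcs1 (298, 269.8, 274 and 282 against 342, 379, 288 and 304), an early enzyme of the mevalonate steps, also differed more in mice 1 and 2. Over the 17 sterol enzymes the median log2 ratio was 0.45 and 0.55 in mice 1 and 2 and 0.20 and 0.17 in mice 3 and 4. Stard4, a carrier of cholesterol within cells, had a log2 fold change of 0.32 and Insig2 of 0.21, and neither passed.

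**Figure D2:**
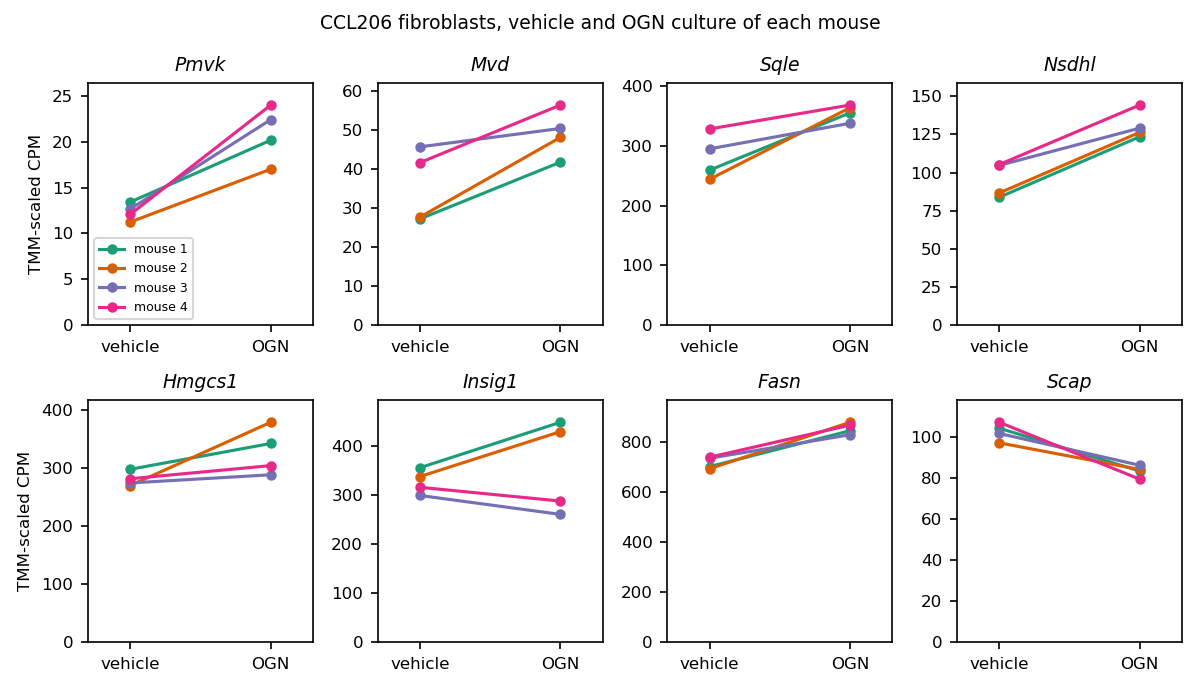
TMM-scaled CPM (y axis, from 0) of 8 genes in CCL206 fibroblasts with vehicle and with OGN, with 1 line for each of 4 mice. Pmvk, Mvd, Sqle, Nsdhl and Fasn rise in each mouse, Scap falls in each, and Insig1 rises in mice 1 and 2 and falls in mice 3 and 4.

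In Epcam+ cells of the same OGN cultures no member passed the test, while 2.70% of all genes were called, 1.48% higher and 1.22% lower. By edgeR's unadjusted p under 0.05 there were 6 of the 37 members, against 1540 of all 11716 genes tested. Of these members 5 were sterol enzymes with a positive fold change. DESeq2 called 3 members, namely Mvd, Lss and Lpcat1, and its share of all genes is not given here. Of the sterol enzymes 16 of 17 had a positive fold change (Ebp was the exception), with a median of 0.15, and of the fatty acid genes 5 of 14 did, with a median of -0.03. In all 4 mice 5 sterol enzymes, 1 regulator and no fatty acid gene were higher, against 9.38% of all genes. Mvd had 53.6, 56.3, 53.6 and 53.3 CPM with vehicle and 58.3, 74.5, 71.7 and 71.6 with OGN, higher in each mouse and without overlap (log2 0.34 ± 0.0936 SE, adjusted p = 0.0594, edgeR). Lss, which closes the sterol rings, had 131, 126, 145 and 127 CPM against 142, 139.8, 175 and 179 (log2 0.25, adjusted p = 0.0796, edgeR). Lpcat1 was lower in each mouse, with 409, 405, 405 and 492 CPM against 334.5, 351, 304 and 422 (log2 -0.28, adjusted p = 0.0602, edgeR). Nsdhl, called in fibroblasts, stood between 85.0 and 90.0 CPM with OGN in Epcam+ cells of 3 mice and at 52.5 in mouse 4. The effects of OGN in both populations were compared directly by the interaction of treatment and population, and no member passed. Of all genes 0.551% did. The smallest p belonged to Scd2, with a log2 difference of -0.34 ± 0.100 SE (Epcam+ minus CCL206, adjusted p = 0.166, edgeR), then Pmvk (-0.58, adjusted p = 0.353, edgeR) and Srebf1 (-0.32, adjusted p = 0.526, edgeR). Unadjusted, 4 of the 37 members had a p under 0.05 (edgeR), against 813 of all 11805 genes tested. A p that misses the threshold does not show that both populations responded alike. All 5 airway markers had a negative fold change in the Epcam+ cells, with a median of -0.58 and 3 called lower. Of 9 fibroblast markers 7 had a negative one (median -0.18, 1 called higher and 2 lower). Among the 10 AT2 markers 5 were negative and 5 positive, with 2 called higher and 1 lower. The part of these markers in the values above was not tested.

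**Figure D3:**
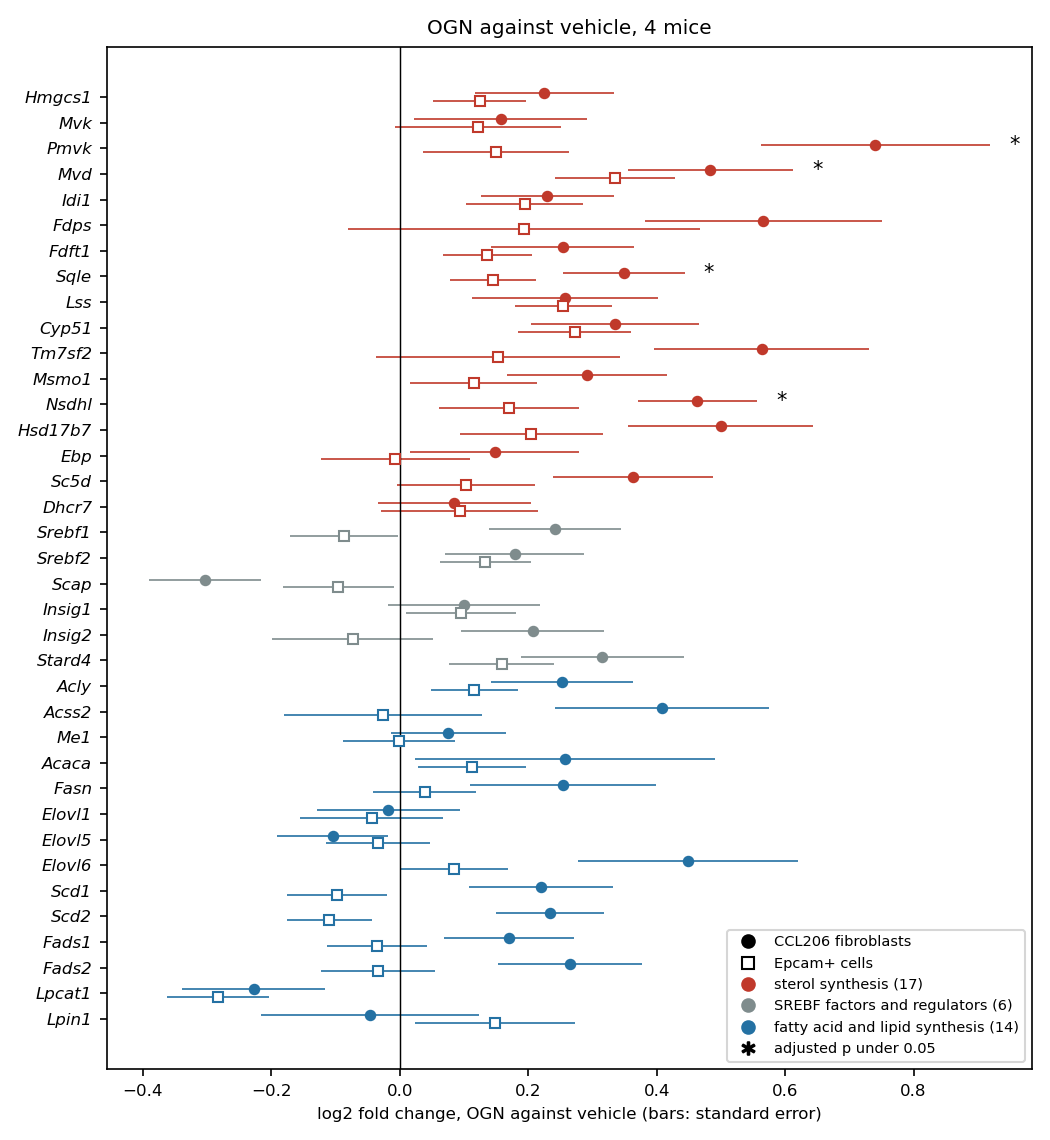
Log2 fold change of each of the 37 genes, OGN against vehicle (x axis; bars are standard errors of the edgeR fit of all 16 libraries of a population), with filled circles for CCL206 fibroblasts and open squares for Epcam+ cells. The 17 sterol enzymes are all to the right of 0 in fibroblasts, and the 4 called genes Pmvk, Mvd, Sqle and Nsdhl carry a star.

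With EVs sterol enzymes were called higher and fatty acid genes lower in fibroblasts, in a smaller share of the members than of all genes. Of the 37 members 11 were called, 7 higher and 4 lower, where 36.0% of all genes were called, 19.8% higher and 16.2% lower. The members higher with EVs were 6 sterol enzymes (Pmvk, Mvk, Ebp, Msmo1, Tm7sf2 and Mvd) and Srebf1, and those lower were the fatty acid genes Scd1, Elovl5, Acaca and Fasn. The sterol median was 0.17 and the fatty acid median -0.18. Without mouse 2 no member was called, and the share of all genes called also fell, from 36.0% to 0.162%. Without mouse 4 only Pmvk was called, and with the 8 libraries compared alone 1 member was. For those fits the share of all genes is not given here, so their counts cannot be set against it. Several folds stayed of like size when the calls were lost: without mouse 2 the log2 values were 1.08 for Pmvk, 0.52 for Mvk, -0.42 for Scd1 and -0.71 for Acaca, and without mouse 4 they were 0.92, 0.53 and -0.46 for the first 3, while Acaca moved to -0.37. The sterol median was 0.19 without either mouse.

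Transcript length moved with these differences, and its part in them was examined by taking the trend out. Across all genes the rank correlation of a library's log2 ratio to vehicle with transcript length was -0.28, -0.58, -0.35 and -0.62 in mice 1 to 4, against -0.23 to 0.20 in the other 12 fibroblast libraries. Pmvk, with a transcript of 1194 bases, went from 13.4, 11.2, 12.7 and 12.1 CPM to 17.5, 27.3, 25.7 and 39.6 (2.19-fold, log2 1.13 ± 0.184 SE, adjusted p = 0.00255, edgeR). Ebp, a sterol isomerase of 1743 bases, went from 35.9, 35.7, 37.9 and 35.6 to 43.1, 66.5, 43.6 and 67.8 (log2 0.58 ± 0.135 SE, adjusted p = 0.00732, edgeR). Both genes were higher in each mouse, and mouse 4 had the largest value of each. Acaca, which makes malonyl-CoA and has a transcript of 9513 bases, went from 132, 117, 139.9 and 147 CPM to 123, 72.9, 109 and 32.7 (log2 -0.70 ± 0.243 SE, adjusted p = 0.0353, edgeR). Fasn, of 10789 bases, went from 701, 693, 734 and 738 to 682, 420.4, 717 and 398 (log2 -0.39 ± 0.145 SE, adjusted p = 0.0480, edgeR). For Fasn, mice 1 and 3 stayed near vehicle. The same 2 libraries, of mice 2 and 4, also had the lowest fibroblast marker sums, 9281 and 7834 CPM, and an Epcam level of 7.12% and 8.73% of that in their Epcam+ cells.

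With the length trend taken out of each library, 10 members were called, but not the same ones. The share of all genes called in that fit is not given here. Of the sterol enzymes 3 were then called in place of 6, and of the fatty acid genes 3 were higher and 3 lower in place of 4 lower. Acaca went to -0.19 (adjusted p = 0.329, edgeR), Tm7sf2 to 0.21 (adjusted p = 0.281, edgeR) and Mvd to 0.15 (adjusted p = 0.405, edgeR), and Elovl1 (-0.47), Me1 (0.30) and Scd2 (0.23) were called only with the correction. Fasn changed direction, from -0.39 to 0.24 (adjusted p = 0.0150, edgeR). The fatty acid median moved from -0.18 to -0.09 and the sterol median from 0.17 to 0.14. Mvk kept its direction and stood at 0.80 (adjusted p = 0.00356, edgeR), though its transcript of 4911 bases is not short. It measured 37.6, 42.6, 49.8 and 58.1 CPM with vehicle and 45.3, 76.7, 66.6 and 99.6 with EVs, higher in each mouse. Pmvk fell to 0.63 (adjusted p = 0.00806, edgeR), Msmo1 to 0.38 and Ebp to 0.25, the last without passing (adjusted p = 0.0878, edgeR). Scd1, at -0.26 after the correction, went from 1146, 675, 759 and 448 CPM to 831, 464, 593 and 329.

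**Figure D4:**
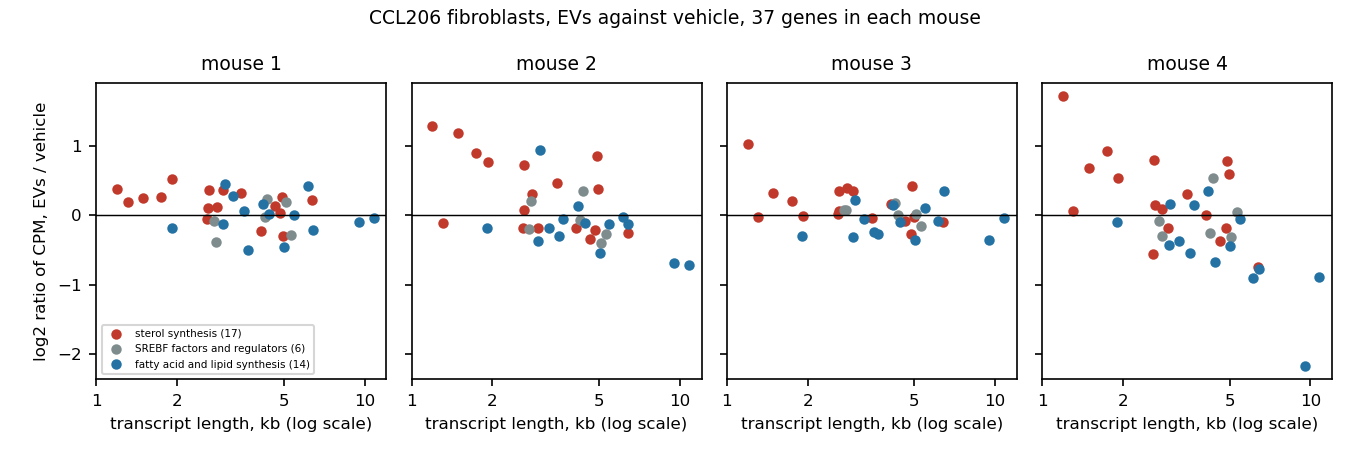
Log2 ratio of CPM with EVs to CPM with vehicle (y axis) against transcript length in kb (x axis, log scale) for the 37 genes in CCL206 fibroblasts, with 1 panel for each of 4 mice. In mice 2 and 4 the short transcripts of Pmvk, Tm7sf2, Ebp and Mvd lie above 0 and the longest, Acaca and Fasn, below it. The short transcript of Elovl1 lies below 0 in both mice and that of Fdps in mouse 2. Mice 1 and 3 show a flatter cloud.

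In Epcam+ cells no member passed with EVs, where 0.888% of all genes did, and DESeq2 called Lpcat1. By edgeR's unadjusted p under 0.05 there were 2 of the 37 members, against 1195 of all 11716 genes tested. Lpcat1 had 409, 405, 405 and 492 CPM with vehicle and 381, 374, 293 and 349.9 with EVs, lower in each mouse and with no overlap (log2 -0.31 ± 0.0792 SE, adjusted p = 0.0691, edgeR). Nsdhl was 0.26 higher on the log2 scale (adjusted p = 0.368, edgeR) and Mvd 0.18 (adjusted p = 0.545, edgeR). Of the sterol enzymes 13 of 17 had a positive fold change (median 0.07), and of the fatty acid genes 2 of 14 did (median -0.07), against 49.2% of all genes. With the length trend taken out, 14 of 17 and 2 of 14 were positive. In these libraries 9 of 10 AT2 markers had a negative fold change (median -0.07, 1 called lower), 8 of 9 fibroblast markers a positive one (median 0.36, 4 called higher) and all 5 airway markers a negative one (median -0.70, 3 called lower), and their part in the value of Lpcat1 was not tested. The EV and OGN comparisons share their vehicle libraries, so both values for Lpcat1 rest on the same controls. The effect of EVs differed between the populations for 5 members by the interaction test, where it did for 23.8% of all genes: Pmvk (-1.12, Epcam+ minus CCL206, adjusted p = 0.00291, edgeR), Ebp (-0.68), Msmo1 (-0.50), Srebf1 (-0.40) and Acaca (0.75). The call of Acaca was lost with the length trend taken out (0.23, adjusted p = 0.357, edgeR) and with no block (0.71, adjusted p = 0.0532, edgeR). Under the length correction the fatty acid median of the interaction went from 0.16 to -0.05. In that fit 2 sterol enzymes were called in place of 3, with 1 regulator and 1 fatty acid gene, all lower. Without mouse 2 the interaction called 1 member, without mouse 3 it called 3, and without mouse 4 it called 1. The share of all genes called in these alternative fits is not given here.

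With SFs no member passed in Epcam+ cells, where 0.230% of all genes did, nor in fibroblasts, where 0.0599% did. By edgeR's test no gene passed the interaction (0.00% of all genes, with 590 genes and 3 members at an unadjusted p under 0.05). At an unadjusted p under 0.05 (edgeR) there were 3 of the 37 members in Epcam+ cells, against 913 of all 11716 genes tested. In fibroblasts there were 4 members, against 621 of 11689 genes. DESeq2 called no member in either population, nor in the interaction. In Epcam+ cells the smallest p belonged to Stard4 (log2 0.23), Scd1 (0.21) and Srebf1 (-0.21), with adjusted p between 0.484 and 0.542 (edgeR). Scd1 measured 3029, 2506, 2585 and 2910.2 CPM with vehicle and 3431, 2870.3, 2904 and 3695 with SFs, higher in each mouse. Of the markers in these libraries 9 of 10 for AT2 cells had a positive fold change (median 0.15, none called, 4 at an unadjusted p under 0.05), as did 8 of 9 for fibroblasts (median 0.24), and all 5 for airway cells had a negative one (median -0.68, 3 called lower). Their part in the value of Scd1 was not tested. In fibroblasts Lpcat1 was lower in each mouse, with 142, 99.9, 108 and 82.5 CPM against 93.3, 68.9, 89.1 and 69.0 (log2 -0.42 ± 0.112 SE, adjusted p = 0.510, edgeR). It was called without the EV libraries (adjusted p = 0.0136, edgeR) and with the 8 libraries compared alone (adjusted p = 0.00113, edgeR), at log2 -0.42 and -0.43. Without the EV libraries Lpcat1 was the only member called. With the 8 libraries alone 3 fatty acid genes were called, 1 of them higher. The share of all genes called in these fits is not given here. In the fit of all 16 libraries Pmvk was higher by 0.50 (adjusted p = 0.763, edgeR) and Elovl5 lower, at -0.23 (adjusted p = 0.791, edgeR). The AT2 marker sum in these fibroblasts was between 1597 and 3309 CPM with SFs and between 1876 and 4841 with vehicle, and all 10 AT2 markers had a negative fold change (median -0.33, none called). Their part in the value of Lpcat1 was not tested. Sterol medians were 0.03 in Epcam+ cells and 0.10 in fibroblasts.

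**Figure D5:**
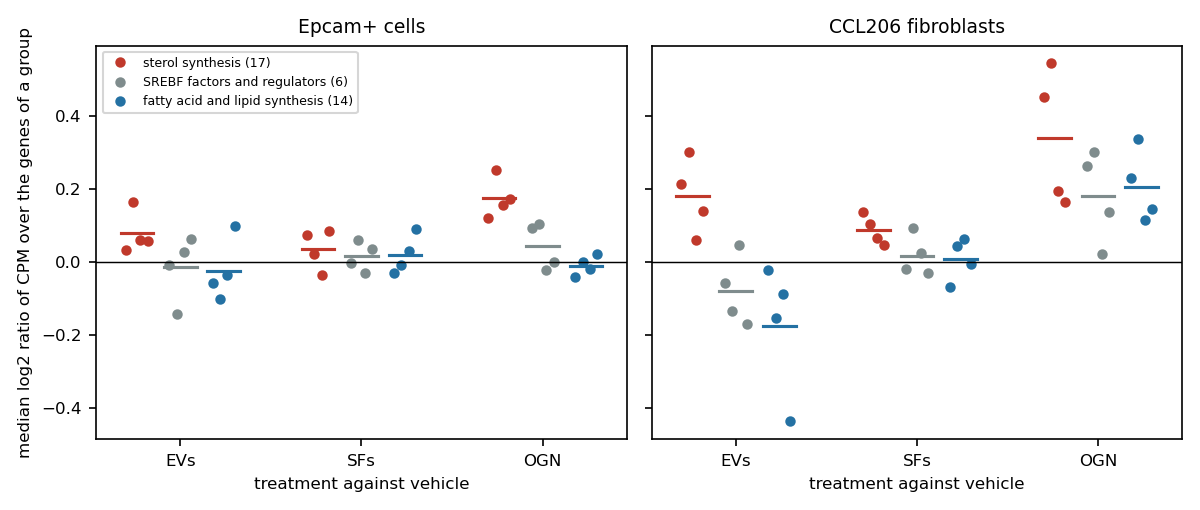
Median log2 ratio to vehicle over the genes of each group (y axis) for EVs, SFs and OGN (x axis), in Epcam+ cells and CCL206 fibroblasts; points are 4 mice and lines their mean. Sterol enzymes with OGN in fibroblasts lie between 0.17 and 0.55, and fatty acid genes with EVs in fibroblasts reach -0.44 in mouse 4.

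Other genes of lipid use were read from lists of 5 measured genes of sterol efflux and storage, 9 of lipid assembly and 8 of fatty acid oxidation. With OGN in fibroblasts 1 of 5, 1 of 9 and 0 of 8 were called, both higher, where 2.70% of all genes were higher and 1.86% lower. The called genes were Abca1, the cholesterol exporter (1.06, adjusted p = 0.00413, edgeR), and Plin2, a coat protein of lipid droplets (0.56, adjusted p = 0.00608, edgeR). Abca1 measured 22.9, 21.2, 22.2 and 22.0 CPM with vehicle and 43.1, 45.1, 43.8 and 51.7 with OGN, far apart. Acat2, an acetyl-CoA thiolase (0.61, adjusted p = 0.000531, edgeR), and Aacs, which activates acetoacetate (0.42, adjusted p = 0.0339, edgeR), were also higher with OGN in fibroblasts. Both come from a further list of sterol genes that is not reported here in full. In Epcam+ cells OGN raised Aacs (0.40, adjusted p = 0.0159, edgeR) and lowered Soat1, which esterifies cholesterol (-0.44, adjusted p = 0.00104, edgeR), from 151, 132.5, 113 and 145 CPM to 109, 103, 93.8 and 92.0. Of all genes 1.48% were called higher there and 1.22% lower. In Epcam+ cells Soat1 was also lower with EVs (-0.34, adjusted p = 0.0310, edgeR), and its response to OGN differed between the populations (-0.61, adjusted p = 0.00506, edgeR). With EVs in fibroblasts 1 of 5, 1 of 9 and 3 of 8 genes of the lists were called higher and 0, 3 and 2 lower, where 19.8% of all genes were higher and 16.2% lower. Soat1 was the only one of them called with EVs in Epcam+ cells, and none was called with SFs in either population. Between the vehicle libraries 1 of 5, 5 of 9 and 2 of 8 were higher in Epcam+ cells and 3, 4 and 5 lower, where 35.6% of all genes were higher and 35.8% lower.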

How the data were processed

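RNA of 32 libraries was measured, 16 of Epcam+ cells and 16 of CCL206 fibroblasts. The values deposited by the authors are raw read counts per gene, in 1 table of 11818 gene symbols, counted by the sequencing provider after adapter trimming, and each gene had at least 1 count in every library. The labels' notes name Trimmomatic 0.30 and DESeq2 1.34.0. The methods name mouse build GRCm38 and the labels GRCm39, and the aligner, the counter, the annotation and the use of strand are not given in the sources used here. Exons of 22 of the 37 members overlap another annotated gene, 10 of them a gene of the table, so their counts may hold reads of the neighbour. Total counts ranged from 1805914 to 17675454, and p-values rest on 4 mice per group.

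Counts were scaled by TMM and tested with edgeR 4.0.16 (R 4.3.3), quasi-likelihood F test, with the mouse as a block since the labels give the same mouse in each group, and Benjamini-Hochberg adjustment over all genes tested (called: adjusted p under 0.05). The 16 libraries of a population entered each treatment comparison, the 8 vehicle libraries the comparison of populations, and all 32 the interactions. Levels are TMM-scaled CPM, computed here from the counts, and per kb of the canonical GENCODE transcript where genes are compared. Same-mouse libraries deviated together on average, with mean correlations of 0.0872 to 0.224 across groups. The lowest single value was -0.0547, with EVs in fibroblasts. The means between mice, -0.07 to -0.03, follow from centring each group on its own mean and are no separate check. The scripts were tested on simulated data. DESeq2 1.42.0, another scaling, other filters, no block, a length correction, fewer libraries and each mouse left out were tried as alternatives.

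The members and the gene lists were chosen with earlier results of these data known. Named were the members called in a comparison, at most 12, or the 3 of lowest p where fewer than 3 passed, for the populations the 6 of lowest p higher and lower, and at most 3 called genes of each neighbouring list. Other members are given by value so that each is accounted for. Promoters were read from RefSeq. Some other genes of the sterol route are not reported here.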

Additional observations from a re-analysis of the deposited data

Results flagged for a closer look

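In 7 of 104 sets of 4 libraries (13 members in 8 groups), 1 library lay far from the other 3, and chance flags about 1 in 20 such sets. In Epcam+ cells these were Mvk with EVs in mouse 4 (58.4 CPM, others 45.4 to 46.5), Pmvk with SFs in mouse 1 (51.3, others 45.8 to 46.8) and Mvd with vehicle in mouse 2 (56.3, others 53.3 to 53.6). With EVs, Tm7sf2 was low in mouse 1 (19.96, others 22.7 to 22.8) and Msmo1 high in mouse 2 (205, others 177 to 178). Nsdhl with OGN was low in mouse 4 (52.5 CPM, others 85.0 to 90.0), which was the widest gap in relative terms. In fibroblasts Ebp with vehicle was high in mouse 3 (37.9, others 35.6 to 35.9).

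The response to EVs differed between Epcam+ cells and fibroblasts for 5 of the 37 members by edgeR's test of the interaction. It did so for 23.8% of all genes, a larger share. The log2 differences, Epcam+ minus CCL206, were -1.12 for Pmvk, -0.68 for Ebp, -0.50 for Msmo1, -0.40 for Srebf1 and 0.75 for Acaca. With the length trend taken out Acaca stood at 0.23 and with no block at 0.71, and it passed in neither. With the length trend out 2 sterol enzymes were called in place of 3, and 1 fatty acid gene was called lower. Without mouse 2 the interaction called 1 member, without mouse 3 it called 3, and without mouse 4 it called 1. The share of all genes called in these alternative fits is not given here.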

How the results depend on the processing

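The mouse number paired the libraries, and with no replicate block the members called with OGN in fibroblasts went from 4 to 1, while no other comparison moved by over 1.5 times. With OGN in fibroblasts DESeq2 called 9, the length correction gave 11, the 8 libraries compared alone 17 and the fit without EV libraries 21. Leaving out a mouse gave 0 to 2. With OGN in Epcam+ cells DESeq2 called 3, a minimum of 10 counts in every library 1, the fit without EV libraries 1, and leaving out a mouse 0 to 1. With EVs in fibroblasts the 8 libraries alone gave 1 and leaving out a mouse 0 to 10, against 11. With EVs in Epcam+ cells DESeq2 called 1. With SFs in fibroblasts the 8 libraries alone gave 3 and the fit without EV libraries 1. The EV interaction gave 1 to 5 with a mouse left out, against 5, and the OGN interaction 1 by DESeq2 and 1 without the EV libraries, an alternative chosen after seeing the data. Fasn with EVs in fibroblasts turned from -0.39 to 0.24 with the length trend out. Of the other values for named genes 471 kept their direction and side of the threshold, 74 lost a call and 12 gained one. Of the medians 237 moved by less than their spread and 6 by more. The cause of these changes was not tested. The share of all genes called moved with the fit too, from 4.56% to 15.1% without the EV libraries for OGN in fibroblasts. With EVs in fibroblasts it went from 36.0% to 0.162% without mouse 2. For the other fits it is not given here, so their counts of members cannot be set against it. Depth limits the rare members, with 5 counts as the lowest, for Fdps.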
